A study of Mus musculus with 30 samples.

Results

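The circadian clock genes described here are the activators Arntl, Clock and Npas2, the period genes Per1, Per2 and Per3, the nuclear receptors Nr1d1 and Nr1d2, and the output transcription factors Dbp and Tef. They were chosen by symbol, as every probe set of the deposited raw-value matrix annotated to one of them, and make up 10 of 21677 gene symbols and 27 of 45037 non-control probe sets. The array holds 2 probe sets for Arntl, 4 for Clock, 2 for Npas2, 1 for Per1, 3 for Per2, 6 for Per3, 1 for Nr1d1, 3 for Nr1d2, 2 for Dbp and 3 for Tef, and all 27 passed the filter on low values. Their Entrez numbers are 11865 (Arntl), 12753 (Clock), 18143 (Npas2), 18626 (Per1), 18627 (Per2), 18628 (Per3), 217166 (Nr1d1), 353187 (Nr1d2), 13170 (Dbp) and 21685 (Tef).

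In the circadian clock, a heterodimer of ARNTL (also called BMAL1) with CLOCK or its paralogue NPAS2 binds E-boxes in DNA and switches on the period and cryptochrome genes, whose proteins return to block the heterodimer over the course of a day. REV-ERBα and REV-ERBβ, encoded by Nr1d1 and Nr1d2, are switched on by the same heterodimer and repress Arntl, so that the RNA of Arntl and that of Nr1d1, Dbp and the period genes peak at opposite times of the day in most tissues. DBP and TEF carry the rhythm outwards through D-box sequences. Skin holds such a clock in keratinocytes, fibroblasts and hair follicles, and the level of each of these RNAs in a sample therefore depends on the hour at which the skin was taken.

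The study followed cutaneous inflammation in mice lacking D6, a chemokine-scavenging receptor encoded by Ccbp2, and asked how their skin responds to the phorbol ester TPA. Female 129–C57BL/6 mice, wild type (WT) or D6-deficient in every cell, were 8 to 12 weeks old, and their shaved back skin received 3 applications of 50 μM TPA in acetone 24 hours apart. Whole back skin was taken at days 1, 2, 4 and 6 afterwards, and day 0 stands for control mice of each genotype, which the methods describe as acetone-treated and the titles as untreated. The hour of the day at which the skin was taken is not given in the sources used here, so that an effect of TPA and an effect of harvest time cannot be told apart, and with different mice on each day no mouse was followed over time. A group is a genotype on a day, and each of the 10 had 3 mice, each on its own Affymetrix array, 30 arrays in all, and the small number of arrays per group limits the precision of every value. In whole skin, fewer cells of a type and less RNA per cell cannot be told apart.

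The array medians ran from 5.64 to 5.80 on the log2 scale, and the spread of arrays within groups, as the median residual SD, was 0.187. By their spiked-in hybridization controls the arrays fell into 1 set of 13 and another of 17, with all 3 arrays of D6-deficient skin at day 6 in the larger set and every other group in both. The Ccbp2 probe set 1422112_at was lower in D6-deficient skin on the mean of the days by 1.41 (log2 difference -1.41, SE 0.11, limma adjusted p = 1.29e-08), with 15 of 15 arrays below the lowest WT array, whereas the brightest Ccbp2 probe set, 1437937_at, differed by -0.07 (SE 0.11, adjusted p = 0.795). All levels below are log2 of RMA intensities and cannot be compared between genes. Differences are log2 differences with the SE of a limma fit to all arrays, and a probe set passed where its Benjamini-Hochberg adjusted p over 36029 tested probe sets was under 0.05.

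The 250 bases before the start of transcription were read for the members from the RefSeq promoter table (build GRCm38.p6), which matched 9 of the 10 genes with 14 windows, some genes having more than 1 start. They were searched on both strands for the palindromic E-box CACGTG, the D-box letters TTATGTAA and TTACGTAA, and TAGGTCA, the letters recognised by REV-ERB receptors. The E-box was in 3 of the 14 windows, 1 of Per1 and 2 of Tef, and in 6.02% of the 32851 windows of all genes. TTATGTAA was in 1 window, that of Per3, with 2 copies, and in 0.819% of all windows. No member's window held TTACGTAA, which 0.113% of all windows hold, or TAGGTCA, which 2.23% hold. Only exact letters within the 250 bases were counted, so that variants of a motif and sites at or beyond the start would be missed. The absence of a match therefore does not show that a gene lacks such a site. The 4 windows that held a motif are shown because they are the ones in which a binding sequence of the clock's own factors stood close to the start, and the capitals mark the motif. They lie at chr4:151044666-151044915 on the minus strand (Per3), chr11:69098699-69098948 on the plus strand (Per1), and chr15:81802423-81802672 and chr15:81811164-81811413 on the plus strand (Tef). The Per3 copies begin 205 and 158 bases before the start, the Per1 E-box 166 bases, and the Tef E-boxes 127 and 138 bases before their respective starts.
Per3: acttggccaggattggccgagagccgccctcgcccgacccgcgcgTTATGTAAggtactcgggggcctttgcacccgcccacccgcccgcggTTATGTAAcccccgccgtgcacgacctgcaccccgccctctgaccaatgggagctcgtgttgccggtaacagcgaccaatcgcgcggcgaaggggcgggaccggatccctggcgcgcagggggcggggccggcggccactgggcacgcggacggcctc
Per1: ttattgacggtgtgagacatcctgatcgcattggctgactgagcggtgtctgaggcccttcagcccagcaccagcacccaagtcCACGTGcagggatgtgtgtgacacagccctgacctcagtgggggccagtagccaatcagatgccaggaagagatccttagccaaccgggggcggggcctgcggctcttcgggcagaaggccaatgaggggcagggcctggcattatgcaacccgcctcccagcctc
Tef, upstream start: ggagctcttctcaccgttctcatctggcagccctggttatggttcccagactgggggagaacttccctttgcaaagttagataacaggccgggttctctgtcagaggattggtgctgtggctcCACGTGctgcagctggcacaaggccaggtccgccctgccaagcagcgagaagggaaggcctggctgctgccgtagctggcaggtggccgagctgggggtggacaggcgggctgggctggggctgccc
Tef, downstream start: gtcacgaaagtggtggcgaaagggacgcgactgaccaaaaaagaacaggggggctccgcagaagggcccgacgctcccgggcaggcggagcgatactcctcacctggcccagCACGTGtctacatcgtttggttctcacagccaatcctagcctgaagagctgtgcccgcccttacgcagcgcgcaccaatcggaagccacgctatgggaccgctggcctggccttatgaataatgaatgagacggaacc
A match of letters is a description of these windows, and no binding was measured.

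After TPA, probe sets of 9 of the 10 genes passed against day 0 in at least 1 contrast of WT skin, the exception being Per1, and probe sets of all 10 did in D6-deficient skin. This count takes any probe set of a gene on any day, so that genes with more probe sets could pass more easily, and Per1 has 1. The share of all genes counted in this way was not computed, and nothing is drawn from the count. In WT skin at day 1, 13 of the 27 probe sets passed, where 24.04% of all tested probe sets did. Of the 13, 6 were higher (11.4% of all) and 7 lower (12.7%). WT day 2 had 10 (26.1% of all), of which 4 were higher (11.04%) and 6 lower (15.02%), and WT day 4 had 11 (39.1%), of which 2 were higher (17.3%) and 9 lower (21.8%). At WT day 6 there were 9 (22.1%), 0 higher (10.2%) and 9 lower (11.9%). In D6-deficient skin the corresponding numbers were 17 at day 1 (36.3% of all), with 4 higher (18.2%) and 13 lower (18.1%), 12 at day 2 (38.1%), with 5 higher (17.5%) and 7 lower (20.6%), and 11 at day 4 (41.1%), with 2 higher (18.8%) and 9 lower (22.4%). D6-deficient day 6 had most, 18 (31.7%), with 0 higher (15.97%) and 18 lower (15.7%). These 27 probe sets are not independent, since they come from 10 genes, and the share that passed ran from close to that of all tested probe sets at day 4 to above it at days 1 and 6. The median difference of the 27 was -0.19, -0.02, -0.15 and -0.39 at days 1, 2, 4 and 6 in WT skin and -0.47, -0.25, -0.21 and -0.59 in D6-deficient skin, whereas the median of all tested probe sets stayed within 0.02 of 0 in each. A change of more than 3-fold was rarer, with 3, 1, 0 and 0 probe sets in WT skin over the 4 days (1.77%, 1.90%, 3.24% and 1.34% of all) and 2, 1, 2 and 0 in D6-deficient skin (2.49%, 3.27%, 4.01% and 2.13%), all of them from Arntl, Npas2, Per2 or Nr1d1. Leaving out 1 array moved the count at day 6 most, to 3 without WT day 6 replicate 2, and to 10 or 11 in D6-deficient skin without day 0 replicate 2 or 3 or day 6 replicate 2. It was 6 at WT day 2 without replicate 3 of that group and 7 at WT day 4 without WT day 0 replicate 3.

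**Figure D1:**
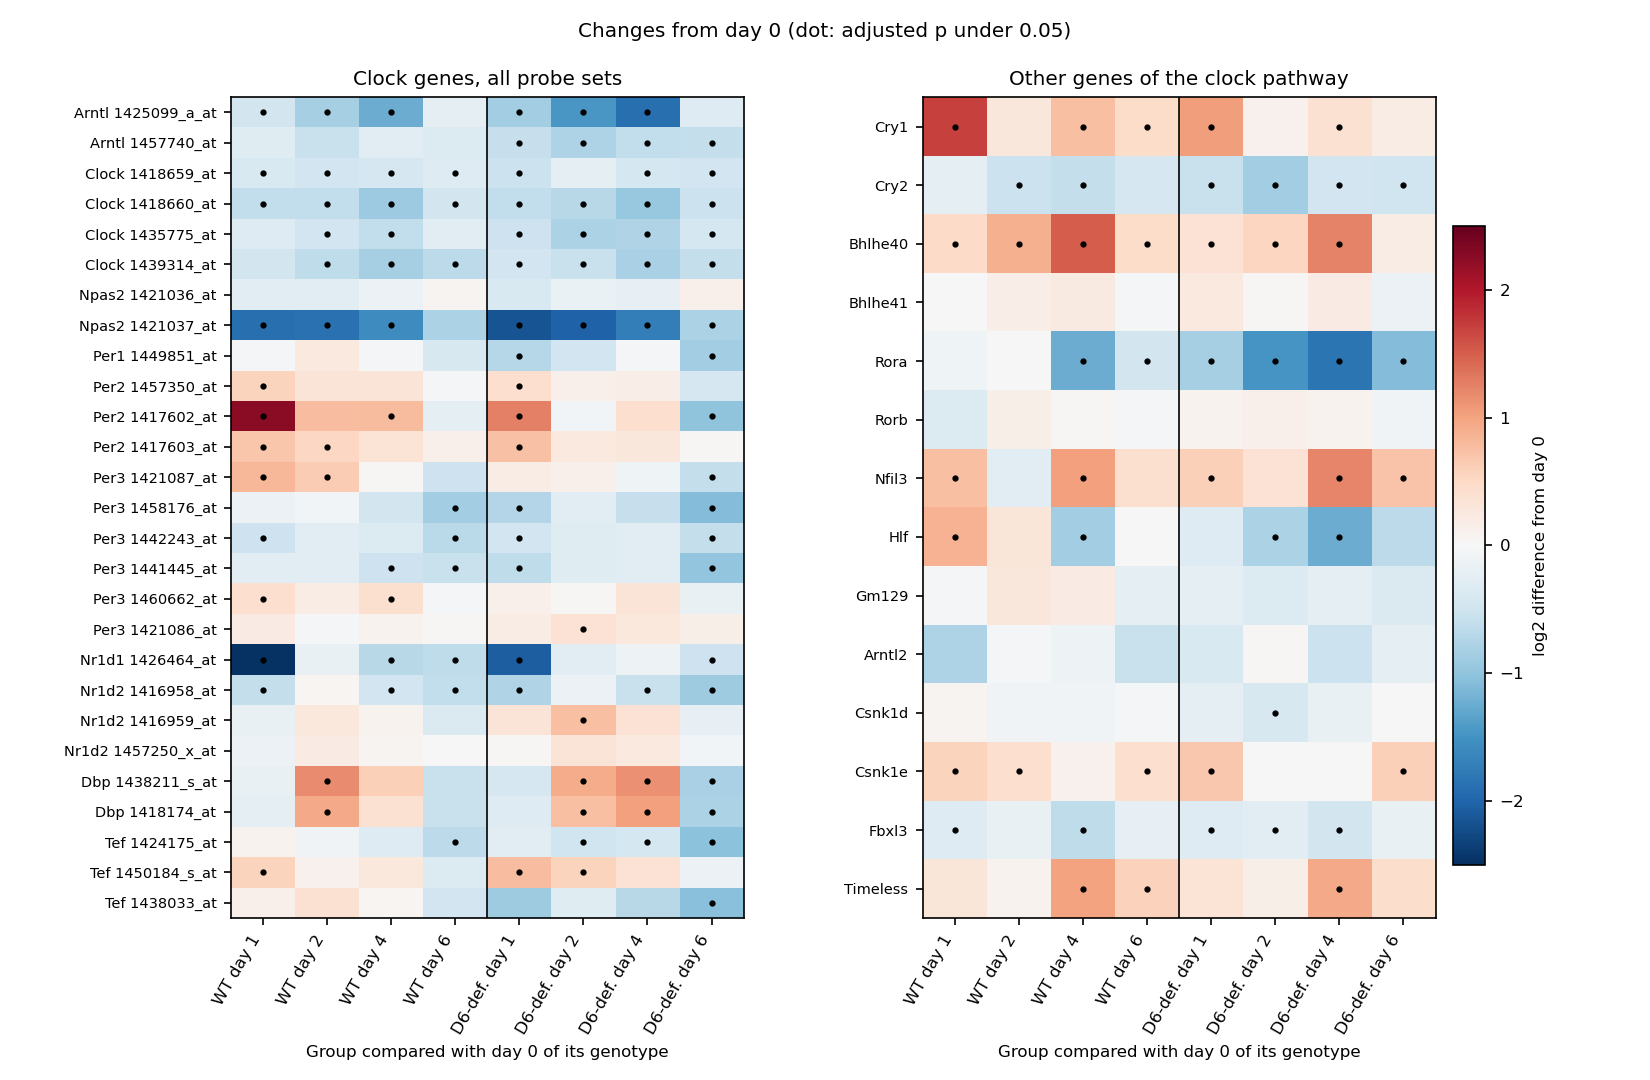
Log2 difference from day 0 of the same genotype for the 27 clock probe sets and for 14 other clock genes (rows) at days 1, 2, 4 and 6 in WT and D6-deficient skin (columns), by colour, with a dot where the limma adjusted p was under 0.05. All probe sets of Arntl and Clock were below day 0 throughout, and Nr1d1 was lowest at day 1. Dbp was higher at days 2 and 4, without passing at WT day 4. All of the 27 clock probe sets that passed at day 6 were lower.

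Arntl, which encodes the partner that CLOCK and NPAS2 both need, fell in steps over the first days and came back. On 1425099_a_at the WT arrays read 8.84, 8.57 and 8.90 at day 0, then 8.19, 8.30 and 8.44 at day 1, 8.03, 8.13 and 7.66 at day 2, 7.37, 7.80 and 7.43 at day 4, with 8.66, 8.30 and 8.59 at day 6. The D6-deficient arrays read 8.87, 8.74 and 8.85 at day 0, then 7.93, 7.95 and 7.97 at day 1, 7.65, 7.17 and 7.29 at day 2, 6.83, 7.04 and 6.96 at day 4, with 8.36, 8.37 and 8.78 at day 6. In both genotypes every array of days 1, 2 and 4 lay below every day 0 array, and day 6 overlapped day 0. The WT differences from day 0 were -0.46 (SE 0.15, adjusted p = 0.0250), -0.83 (adjusted p = 1.86e-04) and -1.24 (adjusted p = 5.39e-07) at days 1, 2 and 4, and -0.25 at day 6 (adjusted p = 0.242). The D6-deficient differences were -0.88 (adjusted p = 7.26e-05), -1.46 (adjusted p = 5.99e-08) and -1.88 (adjusted p = 6.41e-10), a 3.68-fold fall at day 4, and -0.32 at day 6 (adjusted p = 0.101). From day 4 to day 6 the level rose by 0.99 in WT skin (SE 0.15, adjusted p = 2.63e-05) and by 1.56 in D6-deficient skin (adjusted p = 2.32e-08). The day 1 fall in WT skin did not pass without any 1 of WT day 0 replicates 1 and 3 and WT day 1 replicates 1 and 2 (adjusted p 0.0564 to 0.105), and the dimmer probe set 1457740_at passed in no WT contrast but in all 4 D6-deficient ones, at -0.57, -0.77, -0.61 and -0.59.

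Ordered by mean level, Arntl was highest at day 0 of both genotypes (8.82 in D6-deficient and 8.77 in WT skin), followed by day 6 of both (8.52 for WT, 8.50 for D6-deficient skin) and WT day 1 (8.31), with each group overlapping its neighbour. Then came D6-deficient day 1 (7.95), whose arrays all lay below those of WT day 1, WT day 2 (7.94), WT day 4 (7.53) and D6-deficient day 2 (7.37), again overlapping their neighbours. D6-deficient day 4 stood lowest, at 6.94, below all arrays of the group before it.

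Clock, the DNA-binding partner of ARNTL, was lower after TPA by a smaller amount that varied little with the day. On 1418659_at the WT arrays read 9.20, 9.06 and 9.04 at day 0 and the D6-deficient ones 9.10, 9.05 and 9.13, whereas the 24 arrays of later days lay between 8.39 and 8.96. All of these later arrays thus lay below all 6 control arrays. Against day 0 the differences at days 1, 2, 4 and 6 were -0.37, -0.48, -0.43 and -0.33 in WT skin (SE 0.12 each, adjusted p = 0.0229, 0.00359, 0.00591 and 0.0470) and -0.53, -0.25, -0.45 and -0.48 in D6-deficient skin, of which the one at day 2 did not pass (adjusted p = 0.104). A second probe set, 1418660_at, passed in all 8 contrasts and was lowest at day 4, at -0.91 in WT (adjusted p = 1.62e-06) and -0.95 in D6-deficient skin (adjusted p = 7.06e-07). All 4 Clock probe sets were below day 0 in all 8 contrasts. The WT day 6 difference of 1418659_at stood at the threshold, did not pass in 18 of the 30 fits without 1 array, and was -0.19 (adjusted p = 0.333) without WT day 6 replicate 2.

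Npas2, the paralogue of Clock, is represented by probe sets of nearly equal brightness that did not behave alike. On 1421036_at the group means stayed between 4.24 and 4.74 and no contrast with day 0 passed. On 1421037_at the WT arrays read 6.17, 5.88 and 5.28 at day 0, then 3.80, 3.83 and 4.06 at day 1, 3.98, 4.20 and 3.55 at day 2, 3.97, 4.35 and 4.26 at day 4, with 5.52, 4.29 and 5.14 at day 6. The D6-deficient arrays read 5.54, 5.55 and 6.08 at day 0, then 3.80, 3.65 and 3.27 at day 1, 4.00, 3.70 and 3.42 at day 2, 4.41, 3.57 and 3.99 at day 4, with 5.49, 4.44 and 4.88 at day 6. On this probe set days 1, 2 and 4 lay below day 0 on every array in both genotypes, and day 6 lay in between. The fall was 3.69-fold at day 1 in WT skin (-1.88, SE 0.29, adjusted p = 5.37e-05) and 4.44-fold in D6-deficient skin (-2.15, SE 0.29, adjusted p = 5.94e-06). It was -1.87 and -1.58 at days 2 and 4 in WT skin (adjusted p = 4.74e-05 and 1.36e-04) and -2.02 and -1.74 in D6-deficient skin (adjusted p = 7.72e-06 and 3.82e-05). At day 6 both genotypes differed from day 0 by -0.79, past the threshold in D6-deficient skin (adjusted p = 0.0423) and short of it in WT skin (adjusted p = 0.0538), and the former did not pass without any 1 of 5 D6-deficient arrays of days 0 and 6, being -0.54 (adjusted p = 0.225) without day 6 replicate 2. The levels at days 1, 2 and 4 were close to the lowest mean over all arrays that the filter kept, 3.73, and the means of D6-deficient days 1 and 2 (3.58 and 3.71) lay under it. The values carry no detection call, and whether the probe set was above background on those days is not known, so that the true falls may be larger than these folds.

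**Figure D2:**
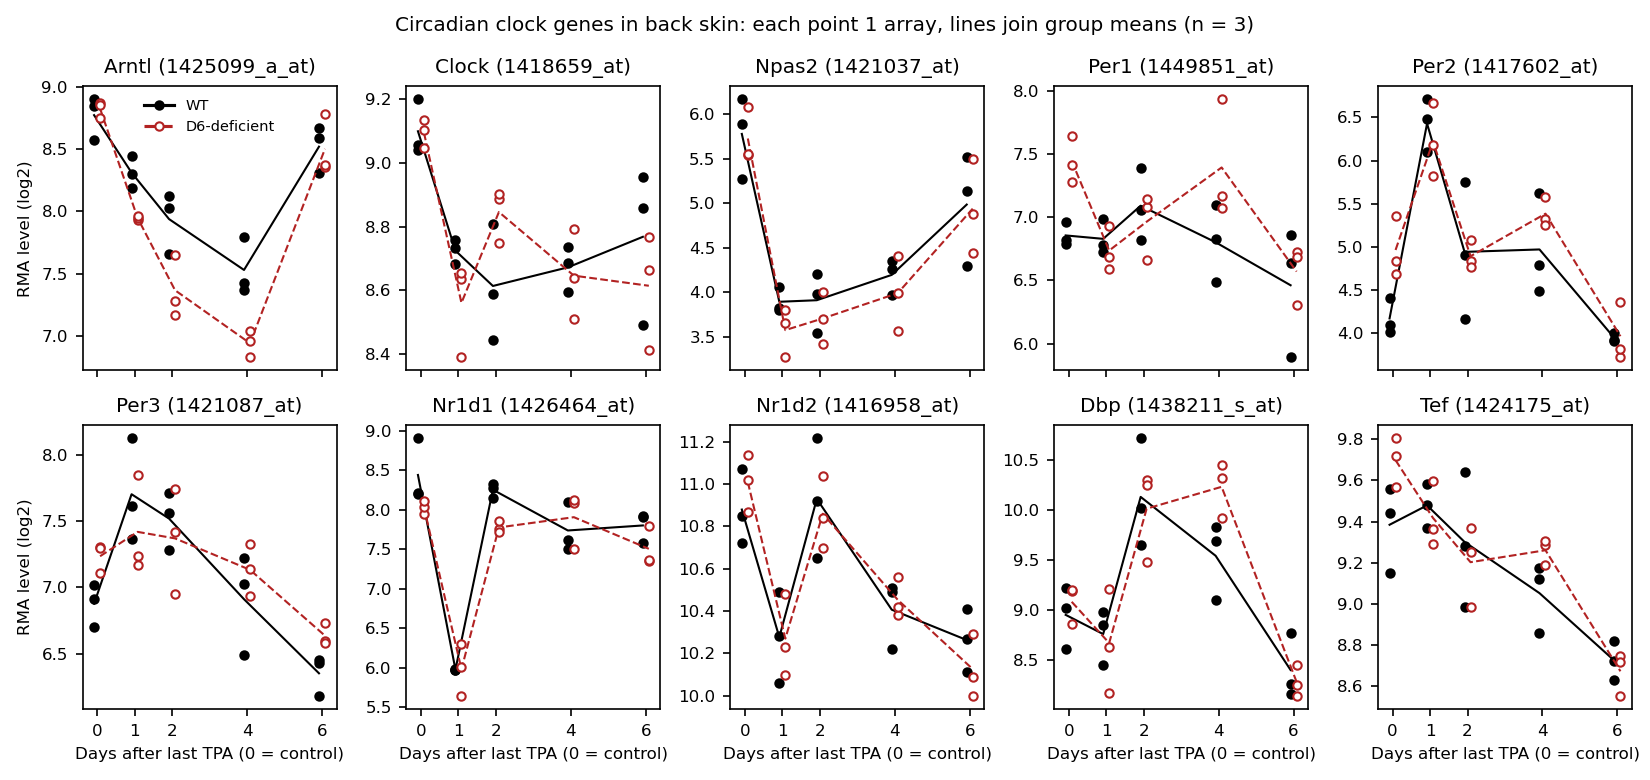
Log2 RMA intensity of 1 probe set for each of the 10 clock genes (panels) on every array, by day (horizontal axis, days after TPA with day 0 as control), with WT and D6-deficient arrays in different colours and lines through the group means (n = 3). Npas2 is shown on 1421037_at and Per2 on 1417602_at, the probe sets of these genes with the widest range of group means. Arntl steps down to day 4 and returns at day 6, and Nr1d1 drops furthest at day 1.

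The period genes, whose proteins with the cryptochromes form the repressing arm, went different ways. Per1, on its single probe set 1449851_at, read 6.79, 6.96 and 6.82 on the WT day 0 arrays and 7.28, 7.64 and 7.41 on the D6-deficient ones. The 12 WT arrays of later days ran from 5.89 to 7.39, overlapping day 0 at each day, and no WT contrast passed (-0.03, 0.23, -0.05 and -0.39). In D6-deficient skin the arrays read 6.68, 6.59 and 6.93 at day 1, 6.66, 7.08 and 7.15 at day 2, 7.93, 7.08 and 7.17 at day 4, with 6.72, 6.68 and 6.31 at day 6. Days 1, 2 and 6 were below all 3 control arrays and day 4 overlapped them. Per1 was lower by 0.71 at day 1 (log2 difference -0.71, SE 0.23, adjusted p = 0.0169) and by 0.87 at day 6 (-0.87, SE 0.23, adjusted p = 0.00477), whereas day 2 (-0.48, adjusted p = 0.1003) and day 4 (-0.05) did not pass. Without D6-deficient day 0 replicate 2, the array with the highest control level, the day 1 difference was -0.61 (adjusted p = 0.0729), and it also missed the threshold without D6-deficient day 1 replicate 1 or 2.

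Per2 was highest at day 1. On 1417602_at the WT arrays read 4.01, 4.40 and 4.10 at day 0, then 6.48, 6.71 and 6.10 at day 1, and the D6-deficient arrays 4.69, 5.36 and 4.84 and then 5.83, 6.18 and 6.66. Every day 1 array lay above every array of the other days. Per2 rose 4.79-fold in WT skin (2.26, SE 0.30, adjusted p = 9.97e-06) and 2.39-fold in D6-deficient skin (1.26, SE 0.30, adjusted p = 0.00221). The other Per2 probe sets also passed at day 1, at 0.56 and 0.69 in WT and 0.43 and 0.72 in D6-deficient skin. The smallest of these, of 1457350_at in D6-deficient skin, stood at the threshold (adjusted p = 0.0472) and did not pass in 15 of the 30 fits without 1 array, being 0.31 (adjusted p = 0.2085) without D6-deficient day 0 replicate 1, and that of the same probe set in WT skin was 0.43 (adjusted p = 0.108) without WT day 1 replicate 1. At day 2 the WT arrays of 1417602_at spread from 4.16 to 5.76 and at day 4 from 4.49 to 5.62, differences from day 0 of 0.77 (adjusted p = 0.0635) and 0.80 (adjusted p = 0.0393). The day 4 value did not pass without any 1 of 4 WT arrays of days 0 and 4, and was 0.47 (adjusted p = 0.251) without day 4 replicate 2. At day 6 the 3 WT arrays read 3.90, 3.91 and 4.00, a difference of -0.23 that did not pass, and the D6-deficient arrays 3.72, 4.36 and 3.81, a 2.00-fold fall (log2 difference -1.0007, adjusted p = 0.0140) that was -0.80 (adjusted p = 0.0804) without D6-deficient day 0 replicate 2 and -0.88 (adjusted p = 0.0606) without D6-deficient day 6 replicate 1.

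Per3 differed between its 6 probe sets. On the brightest, 1421087_at, the WT arrays read 6.70, 7.02 and 6.91 at day 0, then 7.61, 8.13 and 7.37 at day 1, 7.56, 7.28 and 7.72 at day 2, 7.02, 7.22 and 6.49 at day 4, with 6.18, 6.43 and 6.45 at day 6. Days 1 and 2 lay above day 0 on every array, and day 6 below it. The differences were 0.83 (SE 0.21, adjusted p = 0.00591) and 0.64 (adjusted p = 0.0268) at days 1 and 2, and -0.53 at day 6 (adjusted p = 0.0787). The day 2 value did not pass without any 1 of 4 arrays (WT day 0 replicates 1 and 3 and WT day 2 replicates 1 and 3), and was lowest, at 0.545 (adjusted p = 0.108), without the last of them. In D6-deficient skin the control arrays (7.30, 7.11 and 7.30) overlapped those of days 1, 2 and 4, which ran from 6.93 to 7.85, and only day 6 (6.60, 6.73 and 6.58) was apart, at -0.60 (adjusted p = 0.0333), a call that did not pass without D6-deficient day 0 replicate 1 or 3 or any 1 of the day 6 arrays (adjusted p 0.0538 to 0.0886). The other probe sets did not move together, since 1442243_at was lower at day 1 in both genotypes (-0.51 and -0.49), 1441445_at and 1458176_at were lower at day 1 in D6-deficient skin (-0.63 and -0.72) and at day 6 in both genotypes, by 0.98 and 1.09 in D6-deficient skin (log2 differences -0.98 and -1.09), and 1460662_at was higher in WT skin at day 1 (0.42) and day 4 (0.41). Averaging all probe sets of the gene left a WT day 1 difference of 0.09 (adjusted p = 0.614).

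**Figure D3:**
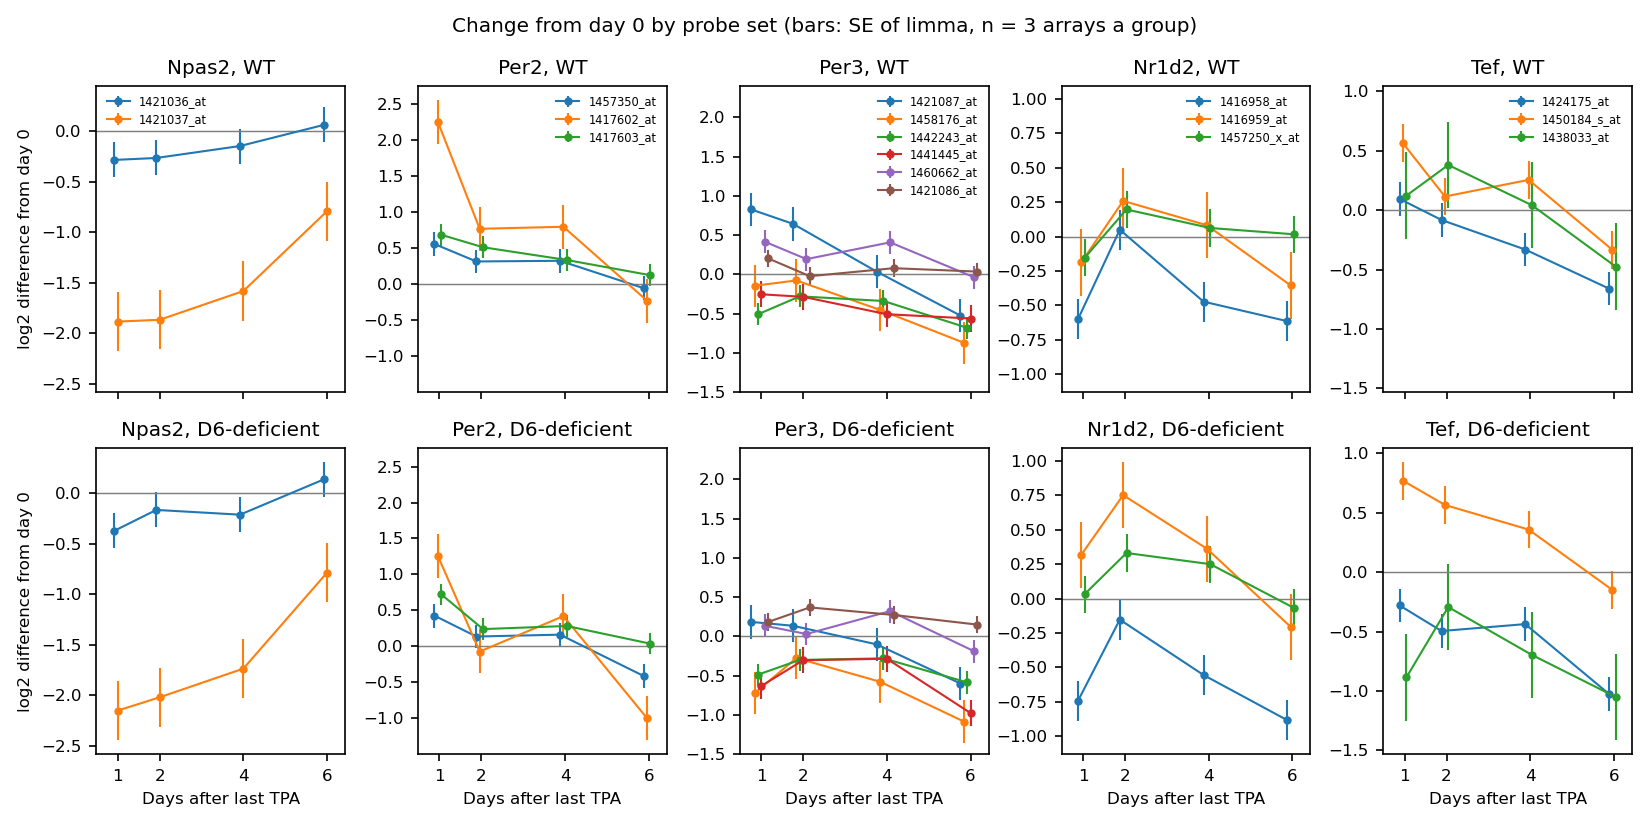
Log2 difference from day 0 with its SE (n = 3 arrays a group) for each probe set of Npas2, Per2, Per3, Nr1d2 and Tef (panels) by day, WT and D6-deficient skin in separate panels and probe sets in different colours. The Per2 probe sets rise together at day 1, whereas those of Npas2, Per3, Nr1d2 and Tef lie on different sides of 0 or differ in size.

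Nr1d1, encoding the repressor REV-ERBα, had the largest difference from day 0 of any member. Its arrays read 8.19, 8.21 and 8.91 at WT day 0 and 7.95, 8.03 and 8.11 at D6-deficient day 0. At day 1 they read 5.98, 5.97 and 5.97 in WT skin and 6.00, 6.30 and 5.64 in D6-deficient skin. No other array of the series was below 7.35. The fall at day 1 was 5.51-fold in WT skin (-2.46, SE 0.19, adjusted p = 9.71e-09, the fit's lowest p among the members at that day) and 4.14-fold in D6-deficient skin (-2.05, SE 0.19, adjusted p = 5.29e-08). By day 2 the level was back at 8.15, 8.28 and 8.33 in WT skin and 7.76, 7.71 and 7.85 in D6-deficient skin, rises of 2.28 (adjusted p = 2.19e-07) and 1.79 (adjusted p = 1.04e-06) from day 1. The WT day 2 arrays overlapped day 0 (-0.19), and the D6-deficient ones lay just below it (-0.26, adjusted p = 0.322). Later levels were slightly lower than day 0, passing at WT day 4 (-0.70, adjusted p = 0.00553), WT day 6 (-0.64, adjusted p = 0.0197) and D6-deficient day 6 (-0.53, adjusted p = 0.0401) but not at D6-deficient day 4 (-0.13). Without WT day 0 replicate 3, the control array at 8.91, the WT values at days 4 and 6 were -0.47 (adjusted p = 0.0649) and -0.40 (adjusted p = 0.152). The WT day 6 value also missed the threshold without WT day 6 replicate 2 (-0.53, adjusted p = 0.1175), and the D6-deficient day 6 call was lost without any 1 of 5 arrays, being -0.45 (adjusted p = 0.1335) without D6-deficient day 6 replicate 1. In RefSeq, Nr1d1 overlaps Thra, and whether the probe set reads both was not tested.

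Nr1d2, encoding REV-ERBβ, moved in the same direction at day 1 by less. On 1416958_at the WT arrays read 10.72, 10.85 and 11.07 at day 0, then 10.49, 10.28 and 10.06 at day 1, and the D6-deficient arrays 10.87, 11.02 and 11.14 and then 10.10, 10.23 and 10.48. In neither genotype did day 1 overlap day 0. The differences were -0.60 (SE 0.15, adjusted p = 0.00378) in WT and -0.74 (SE 0.15, adjusted p = 3.31e-04) in D6-deficient skin. At day 2 the level was again that of day 0 within the spread (0.05 and -0.15), and it then fell by 0.47 and 0.61 at WT days 4 and 6 (log2 differences -0.47 and -0.61, adjusted p = 0.0119 and 0.00372) and by 0.55 and 0.88 in D6-deficient skin (-0.55 and -0.88, adjusted p = 0.00343 and 7.69e-05). The WT day 4 value was -0.38 without WT day 0 replicate 3 or WT day 4 replicate 3, and neither passed (adjusted p = 0.0733 and 0.0760). The dimmer probe sets 1416959_at and 1457250_x_at did not pass at day 1, 4 or 6 in either genotype, and the former was higher than day 0 at D6-deficient day 2 (0.75, adjusted p = 0.0155), which was 0.39 (adjusted p = 0.182) without D6-deficient day 0 replicate 2 and 0.59 (adjusted p = 0.0949) without D6-deficient day 2 replicate 2. The average over the 3 probe sets did not pass at day 1 (-0.31 and -0.13).

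Dbp, which activates genes through D-boxes, was highest at days 2 and 4. On 1438211_s_at the WT arrays read 8.61, 9.02 and 9.21 at day 0, 8.85, 8.98 and 8.45 at day 1, 10.02, 9.64 and 10.72 at day 2, 9.83, 9.69 and 9.10 at day 4, with 8.16, 8.77 and 8.26 at day 6. The D6-deficient arrays read 9.19, 9.19 and 8.86 at day 0, 8.17, 8.62 and 9.21 at day 1, 9.48, 10.30 and 10.25 at day 2, 9.91, 10.32 and 10.45 at day 4, with 8.25, 8.14 and 8.45 at day 6. Day 2 lay above day 0 on every array in both genotypes, and day 4 did so in D6-deficient skin only, WT day 4 overlapping its controls. Dbp was higher 2.26-fold at WT day 2 (1.18, SE 0.28, adjusted p = 0.00285) and by 0.93 at D6-deficient day 2 (adjusted p = 0.0102) and 1.15 at D6-deficient day 4 (adjusted p = 0.00181), whereas WT day 4 did not pass (0.59, adjusted p = 0.0980). Day 1 did not differ from day 0 beyond the spread (-0.19 and -0.41), and at day 6 Dbp was lower in D6-deficient skin by 0.80 (log2 difference -0.80, adjusted p = 0.0309; WT -0.55, adjusted p = 0.168). From day 4 to day 6 it fell by 1.14 in WT skin (log2 difference -1.14, adjusted p = 0.00422) and by 1.95 in D6-deficient skin (-1.95, adjusted p = 8.73e-06). The second probe set, 1418174_at, gave 0.95 at WT day 2 and 0.74, 1.03 and -0.80 at D6-deficient days 2, 4 and 6, all past the threshold. The D6-deficient day 2 call of 1438211_s_at was 0.79 (adjusted p = 0.0593) without day 2 replicate 2 and 0.81, at the threshold, without day 2 replicate 3, and the day 6 call was lost without any 1 of 4 arrays, the lowest value being -0.73 (adjusted p = 0.0974) without day 6 replicate 2. In RefSeq, Dbp overlaps Sphk2, and whether the probe sets read both was not tested.

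Tef, a close relative of Dbp, was lowest at day 6. On 1424175_at the WT arrays read 9.15, 9.44 and 9.56 at day 0, then 8.72, 8.63 and 8.82 at day 6, and the D6-deficient arrays 9.72, 9.81 and 9.57 and then 8.75, 8.55 and 8.72. All 6 day 6 arrays lay below every array of every other group. The fall was 0.66 in WT skin (log2 difference -0.66, SE 0.14, adjusted p = 0.00159) and 1.02 in D6-deficient skin (-1.02, SE 0.14, adjusted p = 8.59e-06). In D6-deficient skin days 2 and 4 were also lower (-0.49, adjusted p = 0.00688, and -0.44, adjusted p = 0.0146), to -0.39 and -0.38 without day 2 replicate 1 and day 0 replicate 2 respectively, which did not pass (adjusted p = 0.0521 and 0.0617), nor did day 4 without day 4 replicate 2 (-0.40). Days 1, 2 and 4 of WT skin did not pass (0.09, -0.08 and -0.33). Another probe set, 1450184_s_at, was instead higher at day 1, by 0.56 in WT (adjusted p = 0.0112) and 0.77 in D6-deficient skin (adjusted p = 5.48e-04), and the gene's average at D6-deficient day 1 was -0.13. At D6-deficient day 2 1450184_s_at also passed as higher, opposite to 1424175_at, and the gene's average there was -0.07.

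Comparisons of each day with the one before it, added after the levels were seen, give the order of these changes without the control groups. From day 1 to day 2, 5 of the 27 probe sets passed in WT skin, where 1.20% of all did, and 7 in D6-deficient skin, where 10.4% did. In both genotypes Nr1d1, Dbp and Nr1d2 rose and Per2 fell, with Dbp up by 1.37 in WT (adjusted p = 0.0152) and 1.34 in D6-deficient skin (adjusted p = 0.00239) and Per2 1417602_at down by 1.49 and 1.33 (log2 differences -1.49 and -1.33, adjusted p = 0.0152 and 0.00514). The WT count was 2 without WT day 1 replicate 3 or without WT day 2 replicate 1 or 3, and 3 without WT day 1 replicate 2, and the D6-deficient count was 3 without day 2 replicate 2. From day 2 to day 4 only Nr1d2 passed in WT skin (-0.52, adjusted p = 0.0153, against 14.5% of all, with -0.38 without WT day 2 replicate 3 and -0.43 without WT day 4 replicate 3, neither of which passed) and no probe set in D6-deficient skin by limma (against 16.3%; 3 had an unadjusted p under 0.05, and the methods' t-test also called 0). From day 4 to day 6, 7 passed in WT skin, against 22.1% of all, and 12 in D6-deficient skin, against 31.4%. Arntl rose and Dbp and Per2 fell in both over that step, and in D6-deficient skin Npas2 rose (0.95, adjusted p = 0.0154; 0.67 without day 6 replicate 1) and Per1 fell by 0.82 (log2 difference -0.82, adjusted p = 0.00723; -0.55 without day 4 replicate 1).

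Over the 5 days together, the limma F test passed for 20 of the 27 probe sets in WT skin, against 44.7% of all tested, and for 24 in D6-deficient skin, against 58.1%. The single Per1 probe set was among the 7 that did not pass in WT skin, with 1 each of Arntl, Npas2, Per3 and Tef and 2 of Nr1d2. The F test of whether the course differed between the genotypes passed for 0 of the 27 by limma (2.54% of all), and 1 had an unadjusted p under 0.05. The lowest adjusted p among the members was 0.166, for Arntl.

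Between the genotypes on the same day, the only member to pass was Arntl at day 2. Its D6-deficient arrays (7.65, 7.17 and 7.29) all lay below the WT arrays (8.03, 8.13 and 7.66), by less than 0.02 at the nearest, a difference of -0.57 (SE 0.15, adjusted p = 0.0236). At day 1 the difference was -0.36 (adjusted p = 0.544) and at day 4 -0.59 (adjusted p = 0.0751), again without overlap, while at days 0 and 6 it was 0.05 and -0.02. The call at day 2 was lost without any 1 of WT day 2 replicates 1 and 2 and D6-deficient day 2 replicates 2 and 3 (adjusted p 0.0997 to 0.168). On the mean of the 5 days Arntl was lower in D6-deficient skin by 0.30 (log2 difference -0.30, SE 0.07, adjusted p = 0.00689), a call that held in every fit that left out 1 array. The counts of member probe sets that passed at days 0, 1, 2, 4 and 6 were 0, 0, 1, 0 and 0 by limma, where 1.57%, 0.0555%, 4.45%, 0.513% and 0.125% of all did, and 4, 3, 2, 4 and 1 had an unadjusted p under 0.05. On the mean of the days 2 of the 27 passed (7.41%), against 5.52% of all. This share and that at day 2 (3.70%) are near those of all probe sets. The other call on the mean was Per3 1441445_at (-0.28, adjusted p = 0.0264). It missed the threshold without WT day 1 replicate 2, WT day 2 replicate 3, D6-deficient day 1 replicate 2 or D6-deficient day 2 replicate 2 (adjusted p 0.0505 to 0.0517).

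At day 0 the arrays of 7 of the 27 probe sets did not overlap between the genotypes, as did those of 21.6% of all, although none of the 7 passed. By group means, Per1 was higher in D6-deficient controls by 0.59 (95% interval 0.12 to 1.06, adjusted p = 0.209), Per2 1417602_at by 0.79 (0.17 to 1.42, adjusted p = 0.206), Per3 by 0.36 (-0.08 to 0.80) and Tef by 0.31 (0.02 to 0.60), and Nr1d1 was lower (-0.41, -0.81 to -0.01). The intervals are not adjusted for the number of probe sets, and that of Per3 includes 0. Differences of day 0 means, although none passed, enter each change from day 0. The D6-deficient change less the WT change passed for none of the 27 probe sets at days 1, 2, 4 and 6 by limma, against 0.0194%, 5.40%, 0.608% and 0.0250% of all, and 3, 4, 2 and 0 had an unadjusted p under 0.05. For Arntl it was -0.62 at day 2 (SE 0.21, adjusted p = 0.0873) and -0.64 at day 4 (adjusted p = 0.187), and for Per2 1417602_at at day 1 it was -1.0015 (SE 0.43, adjusted p = 0.446). For Nr1d1 at day 1 it was 0.41, with an interval of -0.15 to 0.98. Arntl at day 2 was past the threshold in fits without WT day 2 replicate 3 or without D6-deficient day 2 replicate 1, each of which gave 1 passing probe set.

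Within a group the arrays also differed from each other, and these deviations from the group mean were compared between members over the 30 arrays. The mice of a group shared genotype and day, and their hour of harvest relative to each other is not known. Of Arntl's 9 pairs, the one with Per2 (1457350_at) had r = -0.64 (two-sided permutation p within groups = 0.00342, adjusted over the 9 pairs 0.0308) and rho = -0.61 (adjusted p 0.0569 by permutation). Without the arrays farthest from the median of Arntl, WT day 2 replicate 3 and D6-deficient day 2 replicate 1, r was -0.55 (permutation p = 0.0239, adjusted 0.215), so that the call rests on them. It was -0.63 over the 15 WT arrays and -0.66 over the 15 D6-deficient arrays, and with the next brightest probe sets of both genes it was 0.08. None of Arntl's other pairs passed (adjusted permutation p 0.208 to 0.337). Over the 30 arrays, r with Arntl was -0.45 for Per1, -0.38 for Dbp, -0.31 for Tef, -0.25 for Nr1d2 and -0.23 for Per3. It was above 0 for Nr1d1 (0.27), Clock (0.33) and Npas2 (0.33).

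Among all 45 pairs of members, a comparison added after the data were seen, 6 had an adjusted permutation p under 0.05 for Pearson's r, and 5 of them were above 0 and joined Per3, Nr1d2, Dbp and Tef. Dbp and Tef had r = 0.78 and rho = 0.74 (adjusted permutation p = 0.00653 and 0.0126). Their r was 0.77 without the 2 arrays farthest from the median of Dbp, and 0.81 and 0.74 within WT and D6-deficient arrays. Nr1d2 and Dbp had r = 0.78 and rho = 0.78 (adjusted permutation p = 0.00653 and 0.00720). Their r was 0.71 without the 2 arrays farthest from the median of Nr1d2, and 0.83 and 0.71 within WT and D6-deficient arrays. Arrays high in Dbp for their group were thus also high in Tef and Nr1d2. Per3 and Dbp had r = 0.77 and rho = 0.74, Nr1d2 and Tef 0.73 and 0.68, and Per3 and Tef 0.69 and 0.68, with adjusted permutation p of r at 0.00653, 0.0129 and 0.00653, and the second of these was 0.85 in WT and 0.48 in D6-deficient arrays. Without the 2 arrays farthest from the median of the first-named gene of each pair, these r values became 0.71, 0.62 and 0.62. With the hybridization sets removed they were 0.77, 0.73 and 0.69. Arrays share their RNA and their processing across probe sets, and the part of that in these values was not tested.

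**Figure D4:**
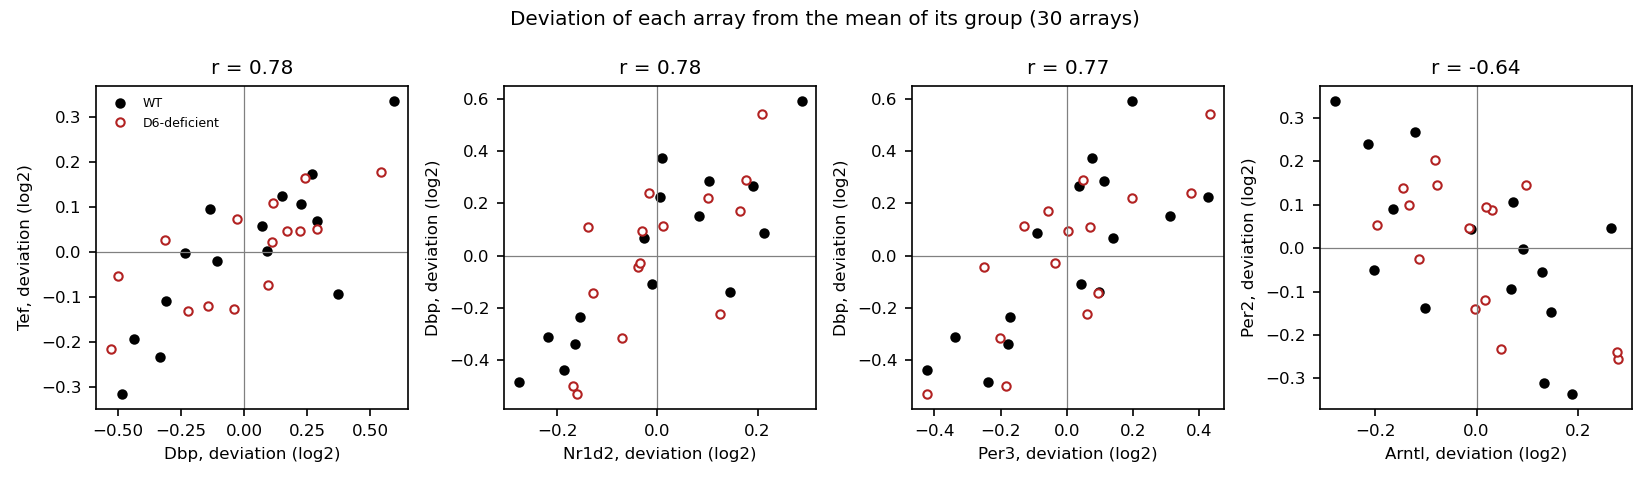
Deviation of each of the 30 arrays from the mean of its group (log2) for 4 pairs of members, Dbp and Tef, Nr1d2 and Dbp, Per3 and Dbp, and Arntl and Per2, with WT and D6-deficient arrays in different colours. The first 3 pairs rise together (r = 0.78, 0.78 and 0.77) and the last falls (r = -0.64).

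The probe sets whose deviations were most like those of Arntl, among 31896 with a single symbol and given as a description over 30 arrays, were of Tmem19 (r = 0.88), Slc5a9 (0.81), Ids (0.75) and Arhgap30 (0.75), and the most opposite were of Bola2 (-0.79), Rnf220 (-0.79) and Dusp12 (-0.76). Those most like Dbp were of Slc25a33 (0.77), Gm3620 (0.77), Meis2 (0.76) and Nrg4 (0.76), and the most opposite was Hif1a (-0.80). These are the extremes of a search over all 31896 probe sets, in which high values can arise without any link, and they were not tested.

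Another 14 genes of the clock that passed the filter were read on the brightest probe set of each. In WT skin the numbers that passed higher were 5, 2, 4 and 4 on the 4 days, and those lower 1, 1, 4 and 1, where 10.2% to 17.3% of all tested probe sets were higher and 11.9% to 21.8% lower. In D6-deficient skin 4, 1, 4 and 2 were higher and 3, 5, 4 and 2 lower, where 15.97% to 18.8% of all were higher and 15.7% to 22.4% lower, so that several of these counts are near the share of all. Cry1, the cryptochrome that with the PER proteins blocks ARNTL and CLOCK, rose at day 1 by 1.70 in WT and 1.05 in D6-deficient skin, on the day when Per2 was highest. Bhlhe40, a repressor that competes for E-boxes, was higher at day 4 by 1.51 and 1.23, and Nfil3, which opposes DBP and TEF at D-boxes, by 1.02 and 1.22. Rora encodes a receptor that activates Arntl, and it was lower at day 4 by 1.23 and 1.83 (log2 differences -1.23 and -1.83), when Arntl was at its lowest. At day 2 the genotypes also differed in Rora, lower in D6-deficient skin (-0.97) as Arntl was, and in Nfil3, higher there (0.61). All values named here passed by limma. Hlf, the third PAR factor beside Dbp and Tef, rose at WT day 1 (0.86) and was lower at day 4 in both genotypes (-0.86 and -1.23), unlike Dbp.

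The marker lists of whole skin differed between the days. With different mice on each day, an effect of TPA on them and other differences between the mice cannot be told apart. The hair follicle growth genes Krt71, Krt27, Krt25 and Msx2 were all 4 higher at days 1 and 6 in both genotypes, and none passed at days 2 or 4. The log2 of their sum ran from 6.65 to 7.24 on the 6 day 0 arrays, from 10.8 to 13.8 on the 6 day 1 arrays, from 6.86 to 7.37 at days 2 and 4, and from 12.4 to 15.1 at day 6. On the brightest probe set of each gene, Nr1d2 was lower and Dbp was not raised at both of these days. Nr1d2 was also lower at day 4, and its dimmer probe sets did not pass at day 1, 4 or 6. Other members differed between days 1 and 6 in both genotypes. Per2 was highest at day 1 and lowest at day 6, and Arntl passed as lower at day 1 only. Nr1d1 differed from day 0 by -2.46 (WT) and -2.05 (D6-deficient) at day 1, and by -0.64 and -0.53 at day 6. All 5 skeletal muscle genes were lower in all 8 contrasts, and their sum went from 15.9 to 16.2 at day 0 to between 13.97 and 15.39 afterwards. The sum of the 5 epidermal keratinocyte genes was 15.2 to 15.8 at day 0 and 13.5 to 14.8 at day 4, the day of lowest Arntl. At that day the differentiation genes Krt1, Krt10 and Lor were lower in both genotypes, Krt10 by 4.27 and 5.52 (log2 differences -4.27 and -5.52), whereas the basal keratin Krt14 was higher in WT skin (1.10) and did not pass in D6-deficient skin (-0.13), and Krt5 did not pass in WT skin (0.22) and was lower in D6-deficient skin (-1.15). The sum of the 3 neutrophil genes S100a8, S100a9 and Ngp was 8.96 to 13.9 at day 0 and 15.2 to 15.7 at days 2 and 4. The group means of Dbp were highest at these days, without passing at WT day 4. S100a8 and S100a9 set the sum, with means of 14.22 and 14.6 at WT day 2, and whether it follows the number of neutrophils was not tested. Ngp, the dimmest of the 3, did not share the high level at WT day 2. Its WT group means were 5.68, 5.75, 8.25 and 6.06 at days 1, 2, 4 and 6. In D6-deficient skin they were 8.21, 10.57, 9.22 and 6.95. The part of these cell types in the clock gene levels was not tested.

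**Figure D5:**
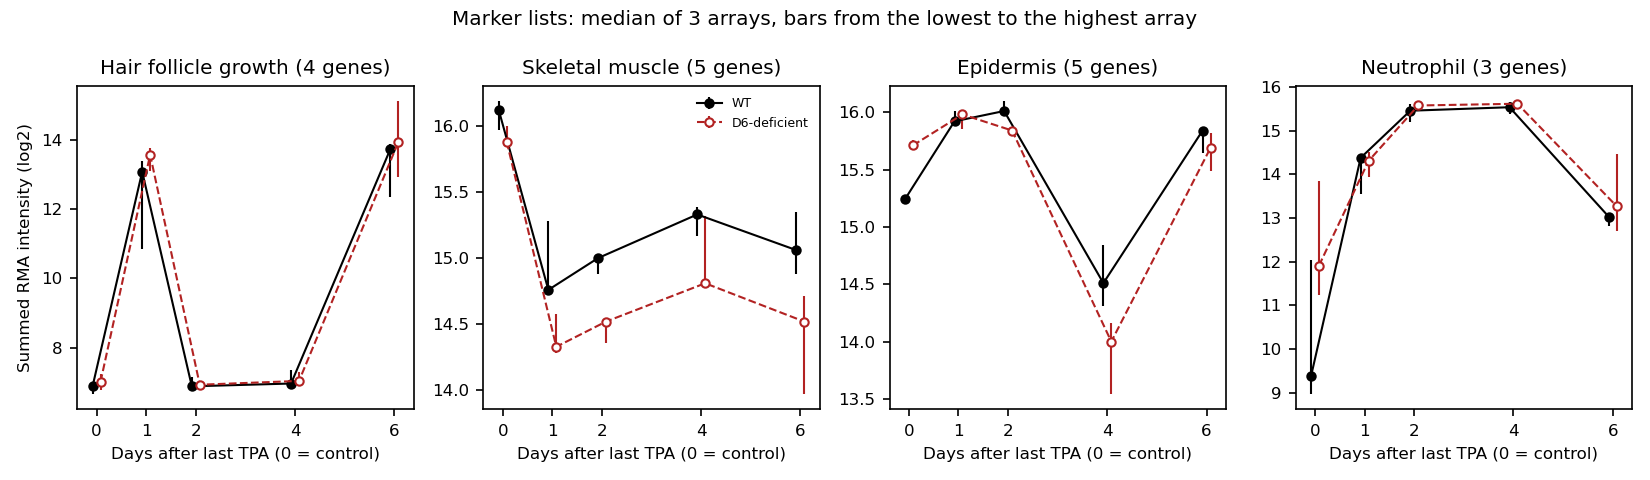
Log2 of the summed intensity of the marker genes of hair follicle growth, skeletal muscle, epidermis and neutrophils (panels) by day (median of 3 arrays, with bars from the lowest to the highest), WT and D6-deficient skin in different colours. By these sums, hair follicle growth genes are high at days 1 and 6 and muscle genes are lower on all days after TPA. The epidermal sum is lowest at day 4, and the neutrophil sum, set mainly by S100a8 and S100a9, is highest at days 2 and 4.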

How the data were processed

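RNA of whole back skin was hybridized to 1 Affymetrix mouse expression array per mouse. The authors background-corrected, quantile-normalized and summarized the probes by RMA and deposited linear intensities, whose log2 was taken here without further scaling. All 30 columns of values were used and 0 were left out. After removal of 64 control probe sets and of the 20% with the lowest mean (9008 probe sets), as in the methods, 36029 were tested with limma 3.58.1 (lmFit and eBayes, R 4.3.3), with 1 mean for each genotype and day and Benjamini-Hochberg adjustment in each contrast. The methods give unpaired t tests with a 3-fold threshold, and these are among the alternatives. With 3 arrays a group, the smallest p of an exact permutation test is 0.1.

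The members and lists were chosen with earlier results of these data known. All member probe sets were analysed, and the one with the highest mean over all arrays is quoted for a gene. For Npas2 and Per2, the changes are mainly described and drawn on the probe set with the widest range of group means. That range was 2.20 for 1421037_at and 2.49 for 1417602_at, against 0.507 and 0.840 for the brightest probe sets. This choice favours large changes. Symbols are those of the deposited annotation, and all 10 were matched to RefSeq by Entrez number. Deviations from group means were compared with 100000 permutations of the arrays within groups (Python 3.11.15, numpy 2.4.6, scipy 1.17.1, pandas 2.3.3, matplotlib 3.10.9). Alternatives were no filter, median centring of each array, only the arrays of the contrast, a replicate block, the hybridization sets as a covariate, array weights, another variance model, the average of a gene's probe sets and the omission of each array. The statistics were tested on simulated data. The other deposited file lists samples and carries no values, so the alternative that would start from it was not run. Fbxl21 was under the filter, Ciart is listed as Gm129, and 1 other gene of the clock list is not reported here.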

Additional observations from a re-analysis of the deposited data

How the results depend on the processing

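Of 136 single values of member probe sets that passed, the alternative fits lost between 1 (another variance model) and 27 (only the arrays of the contrast), and leaving out 1 array lost the call in 218 of 4080 fits and reversed none. Averaging a gene's probe sets lost 25 and reversed 6, since the sets of a gene disagree: Per3 1442243_at at WT day 1 (0.0897), Per3 1460662_at at WT day 4 (-0.13), Tef 1450184_s_at at D6-deficient day 1 (-0.13) and day 2 (-0.0743), Per3 1421086_at at D6-deficient day 2 (-0.0578) and Nr1d2 1416958_at at D6-deficient day 4 (0.0197). No pairing of the arrays by replicate number was seen, although these values cannot show that it was absent. Same-numbered arrays of different groups had a median r of -0.0097 (-0.352 to 0.481, 31 of 135 pairs over 0.1), and 12 of 30 arrays were closest to their own number. A fit with a replicate block lost 3 of the 136 calls (Clock 1418659_at at WT day 6, Per2 1457350_at at D6-deficient day 1 with 0.43, adjusted p = 0.0577, and Arntl 1457740_at at D6-deficient day 1).

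With a change of more than 3-fold added, or by the methods' t-test at its threshold, the counts against day 0 at days 1, 2, 4 and 6 were 3, 1, 0 and 0 in WT skin and 2, 1, 2 and 0 in D6-deficient skin, and the t-test gave the same after Benjamini-Hochberg adjustment. Between genotypes it left 0 at day 2, and with the fold threshold alone 0 on the mean of the days. Between successive days the fold threshold and the t-test left 1 from day 1 to 2 and 0 from day 2 to 4 and day 4 to 6 in WT skin, and 1 from day 1 to 2 and 2 from day 4 to 6 in D6-deficient skin. The t-test after adjustment left 0, 0 and 0 in WT skin and 0 and 2 in D6-deficient skin. With averaged probe sets the counts were 14 at WT day 6, 0 between genotypes at day 2, 3, 0 and 16 for the successive WT steps and 22 from day 4 to 6 in D6-deficient skin. In these counts every probe set took the average of its gene, so that a gene with more probe sets counts more often. They are not counts of genes, and a larger count does not mean that more genes passed. Array weights gave 17 at D6-deficient day 4, 2, 1 and 4 between genotypes at day 1, day 4 and on the mean of the days, 1 for the difference of changes at day 2, 1 for the course by genotype, 2 from WT day 2 to 4, and 11 and 2 from D6-deficient day 1 to 2 and 2 to 4. The hybridization sets gave 1 between genotypes at day 4, 2 from WT day 2 to 4 and 1 from D6-deficient day 2 to 4. Median centring gave 2 from WT day 2 to 4, only the arrays of the contrast 1 from WT day 1 to 2 and 0 from day 2 to 4, and the other variance model 1 from D6-deficient day 2 to 4.

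Leaving out each array gave, against day 0, 9 to 14, 6 to 11, 7 to 12 and 3 to 10 probe sets in WT skin and 12 to 17, 8 to 13, 9 to 14 and 10 to 19 in D6-deficient skin. It gave 0 to 1 between genotypes at days 2 and 4, 1 to 2 on the mean of the days and 0 to 1 for the difference of changes at day 2. The successive WT steps gave 2 to 5, 0 to 3 and 5 to 9, and the D6-deficient steps 3 to 7, 0 to 2 and 9 to 13. For Arntl and Per2, r of the deviations was -0.64 with the replicate block (adjusted permutation p = 0.0328), rho was -0.61 (adjusted 0.0569), and r was -0.55 without the farthest arrays (0.215), -0.63 in WT (0.158), -0.66 in D6-deficient arrays (0.152), -0.62 with the hybridization sets (0.0596) and 0.0764 with the next brightest probe sets (0.969), by the same permutation test. The causes were not tested. Npas2, Per2 and several Per3 probe sets lie in the dimmer part of the tested range, and the number of arrays limits what can be told apart.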

Other observations

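Genes outside the clock that share its rhythm in other tissues were read by limma as values only. Of 8 clock output genes, 1, 1, 1 and 1 were higher and 0, 2, 2 and 4 lower on the 4 days in WT skin. In D6-deficient skin 2, 1, 1 and 0 were higher and 2, 3, 3 and 3 lower. Of all tested probe sets 10.2% to 17.3% were higher and 11.9% to 21.8% lower in WT skin, and 15.97% to 18.8% and 15.7% to 22.4% in D6-deficient skin, so that 1 or 2 of 8 is about that share. Usp2, a deubiquitinase under clock control, was lower in D6-deficient skin on every day after TPA (-0.80, -1.36, -0.62 and -1.14), whereas Wee1, a cell cycle kinase, was higher at WT day 1 (1.19). Lonrf3 was lower at day 4 in both genotypes (-1.54 and -1.34).

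Of 8 glucocorticoid-responsive genes, which follow the daily rise of that hormone and also stress, 2, 3, 3 and 2 were higher and 0, 0, 3 and 3 lower in WT skin, and 1, 2, 2 and 1 higher and 3, 4, 3 and 5 lower in D6-deficient skin, against the same shares of all tested probe sets. Mt2, a metallothionein, rose most at day 4 (2.91 in WT and 2.56 in D6-deficient skin). Dusp1 and Tsc22d3, the latter encoding GILZ, were lower at day 6 in both genotypes, Dusp1 at -1.13 and -1.21 and Tsc22d3 at -0.80 and -1.11, the day on which every clock probe set that passed was lower. Klf9, a transcription factor induced by the hormone, was lower at D6-deficient day 1 (-1.63), and Zbtb16 at D6-deficient day 6 (-1.72).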
